A study of Mus musculus with 6 samples.

Results

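The 53 genes described here lie at known imprinted loci of the mouse, and their transcripts were measured in the medial ganglionic eminence (MGE) of embryos at embryonic day 14. The MGE is a germinal zone of the ventral forebrain that gives rise to many cortical interneurons. The genes were listed by symbol as members of mouse imprinted loci, and they were selected with the KO against WT differences of these same libraries already known, among them the low H19 level in KO. All 53 were found among the 49315 genes of the count table, and 48 of them were among the 18079 genes with enough reads to be tested. Because the contrast was known when the genes were chosen, fold changes and adjusted p-values below are descriptions taken from a fit over all genes, and no statement about the set as a whole rests on them.

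Imprinted genes are transcribed mainly or only from the copy inherited from 1 parent. The parental copies are told apart by DNA methylation laid down in the germ line at imprinting control regions, and each control region governs several neighbouring genes, often with a long noncoding RNA among them. Many of these genes act on embryonic growth, and several are abundant in the developing brain. The libraries count reads per gene and do not tell the maternal from the paternal copy, so every value below is the sum of both.

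Both groups carried the Nkx2.1-Cre driver, active in MGE progenitors and their progeny, together with the Ai14 reporter of recombination. The group labelled KO was Prdm16 fl/fl, in which Cre is meant to delete Prdm16, which encodes a zinc finger protein that regulates transcription in neural progenitors. The group labelled WT was Prdm16 +/+. Each group held 3 libraries, each from the total RNA of 1 pool of 3 embryos (6 MGEs), so differences between single embryos were not measured, and cells outside the Nkx2.1 lineage were in the pools too.

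Total counts per library were between 33188277 and 55552298. Prdm16 had 53.6, 51.3 and 45.8 CPM (a gene's reads after each library is brought to equal depth) in the pools labelled KO, against 55.8, 47 and 45.4 CPM in WT. Its groups overlapped. The sources used here do not give the exons that recombination removes, so the gene-level count cannot check the KO label, and each direction rests on that label. The library KO 1 stood apart: its second principal component score was 34.99, against -11.58 in KO 2 and -12.4 in KO 3. The summed CPM of 4 Y-linked genes was 239, 125 and 0.362 in KO 1 to 3 and between 46.7 and 84 in WT, so the sex makeup of the pools differed. Of the MGE markers, the patterning factor Nkx2-1 had 637, 811 and 861 CPM in KO, against 651, 674 and 615 CPM in WT. The 8 MGE lineage markers summed to 3435.9 to 3999.0 CPM in KO and 3878.4 to 4150.6 CPM in WT. Of the 8, 2 were called higher (Gsx2 and Lhx8) and 2 lower (Lhx6 and Dlx1), beside 9.72% and 10.5% of all tested genes.

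Of the 48 tested imprinted genes, 17 were higher and 6 were lower in KO at an edgeR adjusted p under 0.05, and 25 were not called. Of all tested genes, 20.2% were called, 9.72% as higher and 10.5% as lower. The 3 KO libraries lay wholly above the 3 WT libraries for 22 of the 48 genes and wholly below them for 6, while 39.9% of all tested genes did not overlap in one direction or the other. The median log2 fold change (KO over WT) was 0.19 over the 48 genes, with quartiles of -0.07 and 0.39, beside quartiles of -0.20 and 0.18 over all tested genes. Most differences were small: the difference was under 1.5-fold for 12 of the 23 called genes. Only Cdkn1c was at least 2-fold higher, and H19, Igf2 and Cobl were at least 2-fold lower. In bulk tissue, a change in the number of cells of a type and a change in RNA per cell cannot be told apart.

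Without KO 1, 22 of the 48 genes were higher and 10 were lower, where 41.5% of all tested genes were called. KO 1 was the KO library nearest to the WT mean for 14 of the 23 called genes, KO 2 for 7 and KO 3 for 2. The plot of fold changes by locus shows that most loci hold called and uncalled members, and that some hold members that moved in opposite directions.

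**Figure D1:**
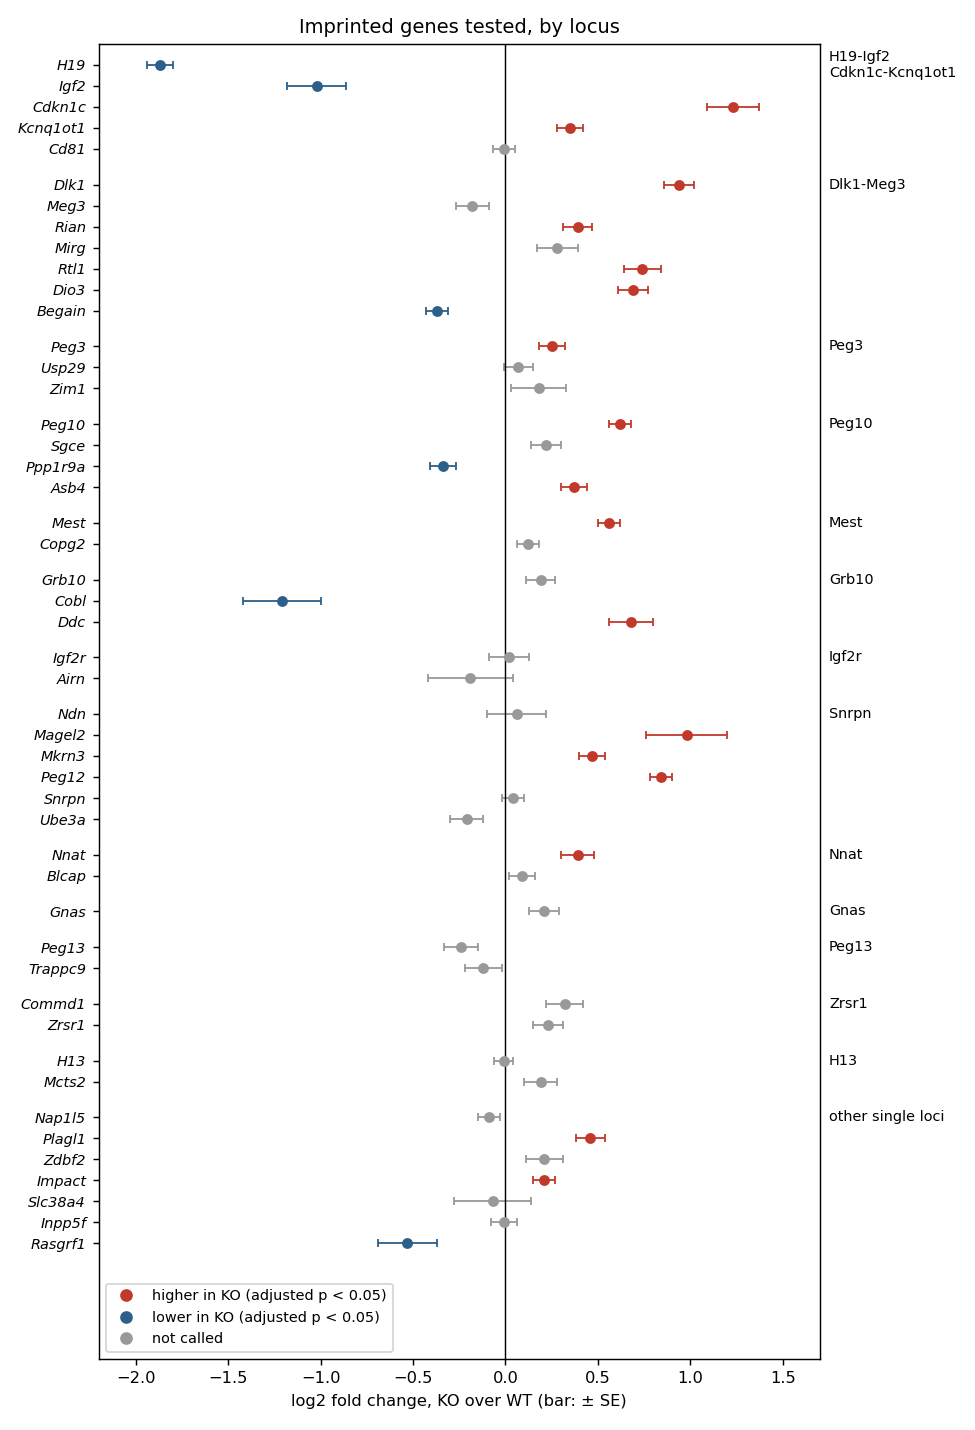
Log2 fold change (x axis, KO over WT) of the 48 tested imprinted genes, grouped by locus down the page; bars are ± SE of the fit over 6 libraries. Red points are the 17 genes higher in KO, blue points the 6 lower in KO and grey points the 25 not called, with H19 at -1.87 and Cdkn1c at 1.23 as the ends of the range.

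Sequence at the starts of these genes was taken from RefSeq (GRCm38.p6), as windows of 300 bases that reach from 250 before to 50 after an annotated start. Windows were found for 44 of the 53 genes, 69 in all. They were searched on both strands for TGCCGC, the hexamer that the zinc finger protein ZFP57 binds when it is methylated; ZFP57 keeps methylation at many imprinting control regions. The hexamer was in 14 of the 69 windows (20.3%), against 11.6% of 32851 windows of all genes. On the gene's own strand alone the order turned, with 3 of the 69 imprinted windows (4.35%) against 5.65% of all windows. Counted per gene with a window, it did not turn, with 6.82% of imprinted genes against 6.45% of all genes on that strand. On both strands the shares per gene were 29.5% and 13.1%. The imprinted windows were richer in CpG, with a median of 15 CpG against 7. Among windows of all genes with at least 15 CpG the share on both strands was 25.1%. The 20.3% covers imprinted windows of any CpG content, so these 2 shares are of unlike sets and cannot be ordered. A core of YY1, GCCATNTT, was in 3 of the 69 windows (4.35%), against 6.05% of all windows. The 2 motifs share no more than a few letters and were counted separately.

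Among called genes, the hexamer was in a window of 3 higher genes (Mest, Nnat and Plagl1) and 1 lower gene (Igf2). The windows of 10 higher and 4 lower genes lacked the hexamer. The called genes H19, Cdkn1c, Peg10, Rtl1 and Impact had no window, so their starts were not searched for the hexamer. It was also in a window of 9 genes that were not called. The windows of the 4 called genes with the hexamer are printed to show where it lies, with that of Dlk1, a higher gene whose window lacks it. Each reads 5' to 3' on the strand of its gene, and the capitals mark the hexamer, which here always appears as its reverse complement GCGGCA. The positions are chr7:142661222-142661521 (minus strand) for Igf2, chr6:30737800-30738099 (plus) for Mest, chr2:157559828-157560127 (plus) for Nnat, chr10:13090582-13090881 (plus) for Plagl1 and chr12:109452573-109452872 (plus) for Dlk1. A match is not evidence of binding, and methylation was not measured.
Igf2: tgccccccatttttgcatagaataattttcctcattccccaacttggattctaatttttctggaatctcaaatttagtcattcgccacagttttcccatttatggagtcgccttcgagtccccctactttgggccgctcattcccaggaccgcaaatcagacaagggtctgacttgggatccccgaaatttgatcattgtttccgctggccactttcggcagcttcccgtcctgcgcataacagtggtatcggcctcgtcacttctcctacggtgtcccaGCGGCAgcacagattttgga
Mest: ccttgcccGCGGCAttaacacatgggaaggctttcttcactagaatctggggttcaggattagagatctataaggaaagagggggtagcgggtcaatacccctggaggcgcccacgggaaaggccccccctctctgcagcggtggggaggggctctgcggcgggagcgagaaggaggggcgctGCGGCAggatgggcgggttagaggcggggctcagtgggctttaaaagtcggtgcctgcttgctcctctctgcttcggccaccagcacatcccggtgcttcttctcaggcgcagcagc
Nnat: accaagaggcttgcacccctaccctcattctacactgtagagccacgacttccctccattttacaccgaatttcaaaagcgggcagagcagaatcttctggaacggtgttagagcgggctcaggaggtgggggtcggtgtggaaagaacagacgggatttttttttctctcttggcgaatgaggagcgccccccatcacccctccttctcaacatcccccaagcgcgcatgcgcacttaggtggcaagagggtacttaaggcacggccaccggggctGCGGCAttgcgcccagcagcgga
Plagl1: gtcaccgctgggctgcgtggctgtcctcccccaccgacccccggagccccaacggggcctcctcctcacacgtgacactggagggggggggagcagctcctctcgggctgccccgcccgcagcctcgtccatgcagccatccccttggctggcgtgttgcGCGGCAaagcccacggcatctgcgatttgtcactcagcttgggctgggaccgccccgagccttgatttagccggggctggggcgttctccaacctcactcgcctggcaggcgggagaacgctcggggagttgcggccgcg
Dlk1: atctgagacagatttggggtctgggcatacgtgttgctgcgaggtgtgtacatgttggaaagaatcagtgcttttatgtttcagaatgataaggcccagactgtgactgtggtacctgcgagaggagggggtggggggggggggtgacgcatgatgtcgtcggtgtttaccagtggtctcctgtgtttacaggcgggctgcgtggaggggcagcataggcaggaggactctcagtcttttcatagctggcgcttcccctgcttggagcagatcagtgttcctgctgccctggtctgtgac
The Mest window holds the hexamer at 2 places, and the windows of Igf2, Nnat and Plagl1 hold it once each.

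The called genes H19 and Mest also carry microRNAs, whose mature forms are printed from RefSeq because their host transcripts are described below. MicroRNAs of the Dlk1-Meg3 locus, some of which overlap the called gene Rtl1, are not printed. Capitals mark the seed, bases 2 to 8, which pairs with target RNAs. The miR-675 hairpin lies in an exon of H19 and miR-335 lies within the Mest gene.
mmu-miR-675-5p: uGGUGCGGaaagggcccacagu
mmu-miR-675-3p: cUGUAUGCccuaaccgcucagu
mmu-miR-335-5p: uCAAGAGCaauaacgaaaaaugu
mmu-miR-335-3p: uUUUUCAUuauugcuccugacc
The 4 seeds all differ. The Mir675 gene had 0 counts in each of the 6 libraries, and Mir335 had 12, 15 and 24 counts in KO and 12, 8 and 4 counts in WT. The sources used here do not say whether RNAs of this length were kept, so these counts say nothing of the mature miRNAs.

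At the distal end of mouse chromosome 7, H19 and Igf2 were both lower in KO, while Cdkn1c, in the neighbouring domain, was higher. H19, a noncoding RNA expressed from the maternal copy (ENSMUSG00000000031, GRCm38 chr7:142575529-142578143, minus strand), had 63.6, 57.6 and 54.5 CPM in KO, against 223, 207 and 211 CPM in WT. The groups were far apart, and KO 1 was the highest of the KO libraries. H19 averaged 58.6 ± 4.65 CPM in KO and 214 ± 8.28 CPM in WT (SD, n = 3 each), a log2 fold change of -1.87 with an SE of 0.07 (adjusted p = 7.86e-07 in edgeR). It was 3.65-fold lower in KO, the farthest of the 48 tested genes in either direction.

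Igf2 encodes a growth factor of the insulin family and is expressed from the paternal copy in most tissues. The gene (chr7:142650766-142666816, minus strand) had 28.2, 17.9 and 18.5 CPM in KO, against 41.8, 46.3 and 43.1 CPM in WT. No KO library reached the WT range, and KO 1 lay nearest to it. The means were 21.5 ± 5.75 CPM in KO and 43.7 ± 2.33 CPM in WT, so Igf2 was 2.03-fold lower in KO (log2 fold change -1.02 with an SE of 0.16, adjusted p = 0.00478 in edgeR). H19 and Igf2 are expressed from opposite parental copies under 1 shared control region, and here both were lower. H19 was lower by more: per kilobase of exon, the ratio of H19 to Igf2 was 5.26, 7.48 and 6.84 in KO and 12.4, 10.4 and 11.4 in WT, without overlap.

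Markers of other cells were measured in the same libraries, where 9.72% of all tested genes were higher and 10.5% were lower. In the pericyte and mural list, 7 of 10 genes were lower in KO, among them Rgs5, a marker of pericytes, and Pdgfrb, the growth factor receptor of mural cells. The list summed to 196 to 263 CPM in KO and 242 to 254 CPM in WT; without Notch3, which neural progenitors also express, it summed to 87 to 122 CPM in KO and 145 to 148 CPM in WT. In the endothelial list 2 of 10 genes were lower, with sums of 261 to 303 CPM in KO and 304 to 310 CPM in WT. In the microglia list 2 of 7 were lower, with sums of 27.6 to 33.3 CPM in KO and 35.8 to 37.8 CPM in WT. Nothing is read from the counts of 2.

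Meningeal and fibroblast markers were low in both groups. Their list summed to 35.1 to 39.9 CPM in KO and 35.8 to 41.2 CPM in WT, and 3 of its 10 members were too low to test. edgeR called 0 of the 7 tested members, with 1 at an unadjusted p under 0.05, and DESeq2 and limma voom also called 0. Red cell markers went the other way: 4 of 9 were higher in KO, and the list summed to 871 to 1425.2 CPM in KO and 333 to 397 CPM in WT. The choroid plexus list summed to 28.6 to 35.4 CPM in KO and 12.2 to 14.5 CPM in WT, all but about 1.5 CPM of it from Otx2. In the cortical excitatory list 4 of 8 genes were higher and Bcl11b, which MGE-derived neurons also express, was lower. The whole list summed to 366 to 446 CPM in KO and 550 to 615 CPM in WT. Without Bcl11b it summed to 52.2 to 87.5 CPM in KO and 20.7 to 44.9 CPM in WT. The part of any of these cells in the H19 and Igf2 values was not tested. The plot of summed markers shows these lists beside H19 and Igf2.

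**Figure D2:**
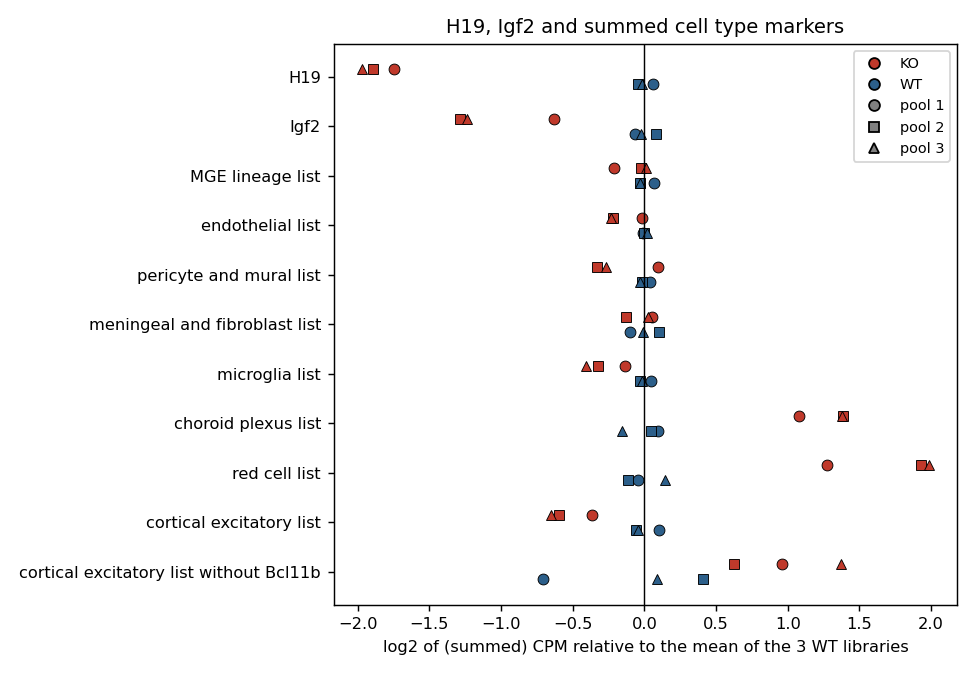
H19, Igf2 and the summed CPM of marker lists in each library (x axis, log2 relative to the mean of the 3 WT libraries); red symbols are KO, drawn above blue WT symbols, and the shape gives the pool number. In KO, H19 and Igf2 lie below the WT libraries, the red cell and choroid plexus lists lie above them, and KO 1 is closest to WT in several lists.

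Cdkn1c encodes p57, an inhibitor of cyclin-dependent kinases that halts the cell cycle, and is expressed from the maternal copy. The gene (chr7:143458339-143461050, minus strand) had 117, 144 and 177 CPM in KO, against 56.4, 65.8 and 65.1 CPM in WT. Every KO library lay above every WT library, with a wide spread within KO. Cdkn1c averaged 146 ± 30.4 CPM in KO and 62.5 ± 5.24 CPM in WT, 2.34-fold higher in KO (log2 fold change 1.23 with an SE of 0.14, adjusted p = 0.00123 in edgeR). An antisense gene model, Gm44732, overlaps 30.7% of its exonic bases; its own counts gave 1.31 ± 0.287 CPM in KO and 0.978 ± 0.113 CPM in WT.

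Kcnq1ot1, the noncoding RNA that silences its neighbours on the paternal copy, had 23.8, 25 and 23.4 CPM in KO, against 19.1, 19 and 18.5 CPM in WT. The groups did not overlap, and the gene was 1.27-fold higher in KO (log2 fold change 0.35 with an SE of 0.07, adjusted p = 0.00882 in edgeR, but 0.0526 without WT 3). Per kilobase, Cdkn1c over Kcnq1ot1 was 278 ± 62.1 in KO and 151 ± 14.6 in WT. Cd81, which encodes a tetraspanin of the cell surface, had 87.5 ± 4 CPM in KO and 88.3 ± 4.21 CPM in WT. The other 3 listed genes of the domain were too low to test: Phlda2, a placental growth regulator, Slc22a18, a transporter, and Ascl2, a trophoblast transcription factor. None of them was above 0.248 CPM in any library.

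**Figure D3:**
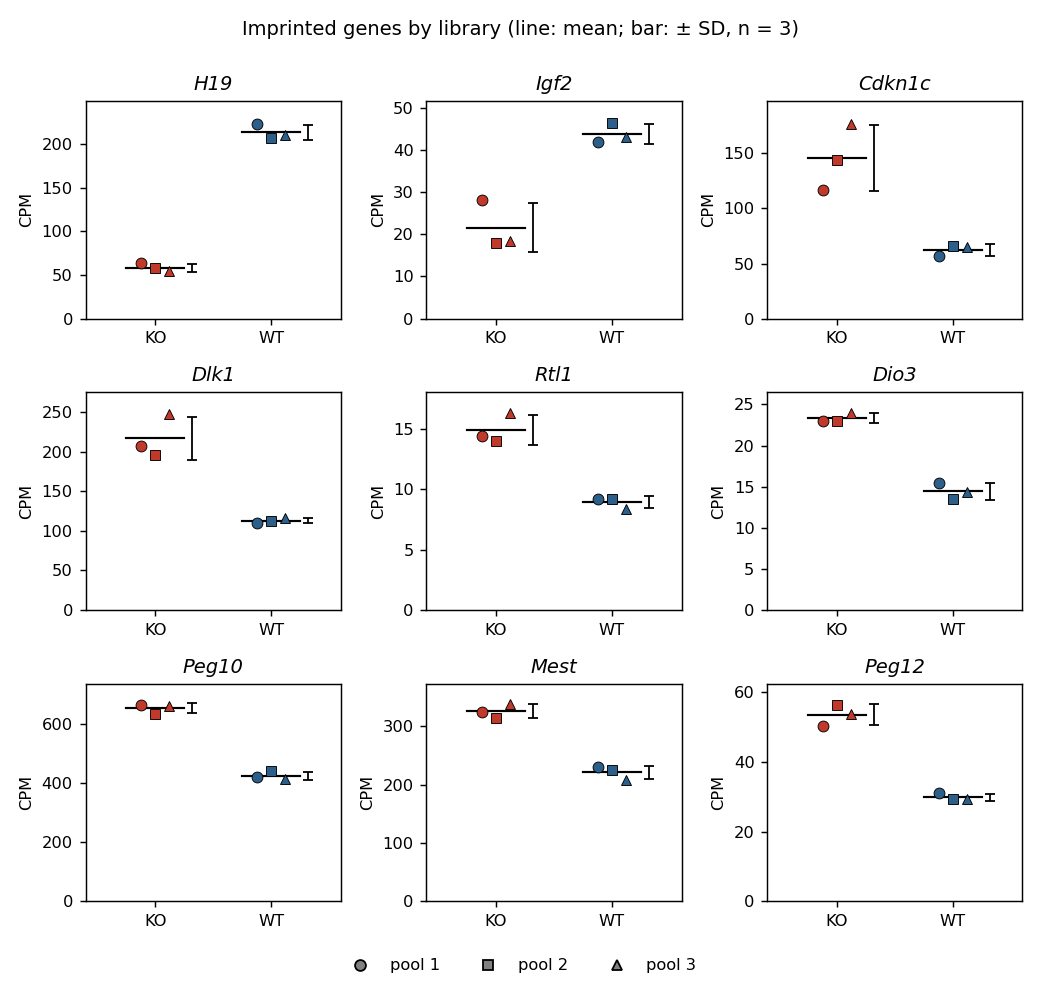
CPM of 9 imprinted genes in each library (y axis from 0), KO on the left and WT on the right, with the mean as a line and ± SD over 3 pools as a bar beside it. H19 and Igf2 are lower in KO and the other 7 genes are higher, with no overlap between groups in any panel.

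At the Dlk1-Meg3 locus on chromosome 12, the protein-coding genes Dlk1, Rtl1 and Dio3 were all higher in KO. Dlk1 and Rtl1 are expressed from the paternal copy, and the imprinting of Dio3 depends on the tissue. Dlk1, a transmembrane protein related to Notch ligands (chr12:109452823-109463336, plus strand), had 207, 196 and 248 CPM in KO, against 110, 113 and 116 CPM in WT. All 3 KO libraries were far above WT. The means were 217 ± 27.6 CPM in KO and 113 ± 3.17 CPM in WT, a log2 fold change of 0.94 with an SE of 0.08 (adjusted p = 0.000216 in edgeR), or 1.92-fold.

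Rtl1, a gene derived from a retrotransposon, had 14.4, 14 and 16.3 CPM in KO and 9.19, 9.23 and 8.34 CPM in WT, 1.67-fold higher (edgeR adjusted p = 0.00124). Dio3, the deiodinase that inactivates thyroid hormone, had 23, 23 and 24 CPM in KO and 15.5, 13.5 and 14.3 CPM in WT, 1.61-fold higher (edgeR adjusted p = 0.000622). Neither gene had a KO library within the WT range. Rtl1 is overlapped by precursors of microRNAs, on the other strand except for Mir3071, and the sources used here name no strand setting for the counting, so reads of the opposite strands cannot be told apart.

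The noncoding RNAs of the maternal copy did not move as 1 group. Meg3 had 1606.2, 1517.4 and 1566.1 CPM in KO and 1524.6, 1973.5 and 1801.6 CPM in WT. Its groups overlapped through WT 1, and its log2 fold change was -0.18 with an SE of 0.09 (adjusted p = 0.194 in edgeR). Rian, which hosts small nucleolar RNAs, had 672, 775 and 804 CPM in KO and 561, 567 and 592 CPM in WT. It was 1.31-fold higher in KO without overlap (edgeR adjusted p = 0.00987, but 0.0516 without WT 2). Mirg, which hosts microRNAs, had 28.2 ± 4.42 CPM in KO and 23.3 ± 0.484 CPM in WT (edgeR adjusted p = 0.0912, but 0.000348 without KO 1).

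Ratios within the locus made the same contrast. Dlk1 over Meg3, per kilobase, was 0.412, 0.413 and 0.507 in KO and 0.231, 0.183 and 0.207 in WT. Rian over Meg3 was 0.477 ± 0.0535 in KO and 0.325 ± 0.04 in WT, although both transcripts come from the same parental copy. Begain, at the other side of Dlk1, encodes a protein of the postsynaptic density and had 47, 41.7 and 44.9 CPM in KO against 55.1, 57.5 and 59.5 CPM in WT. It was 1.29-fold lower in KO (log2 fold change -0.37 with an SE of 0.06, adjusted p = 0.00583 in edgeR).

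**Figure D4:**
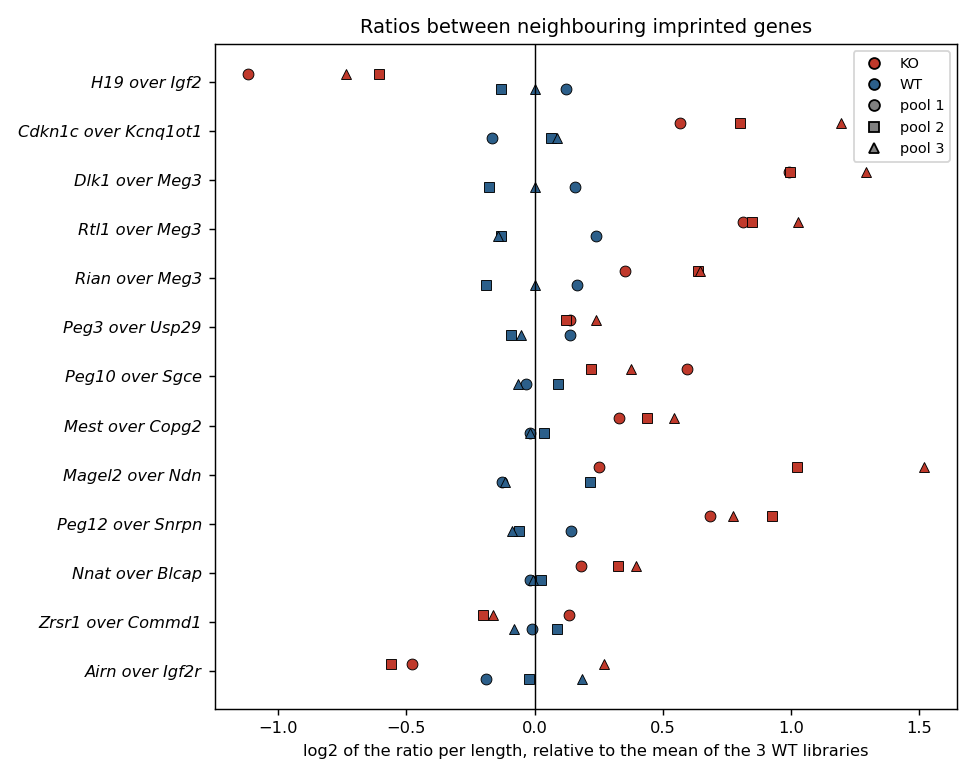
Ratios of expression per kilobase between neighbouring imprinted genes (x axis, log2 relative to the mean of the 3 WT libraries), with red KO symbols drawn above blue WT symbols and the shape giving the pool number. KO lies wholly below WT for H19 over Igf2 and wholly above it for 9 ratios, and the groups overlap for Peg3 over Usp29, Zrsr1 over Commd1 and Airn over Igf2r.

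At the Snrpn locus, 3 of 6 tested genes were higher in KO, beside 9.72% of all tested genes, and these were neighbours of Ndn, which was not called. Peg12, an intronless gene of the Frat family of Wnt regulators, had 50.3, 56.2 and 53.7 CPM in KO, against 31, 29.2 and 29.3 CPM in WT. It was 1.79-fold higher with narrow groups (log2 fold change 0.84 with an SE of 0.06, adjusted p = 8.68e-05 in edgeR). Mkrn3, a makorin ring finger protein, had 28.2, 27.5 and 30.2 CPM in KO and 20.3, 21.2 and 20.6 CPM in WT (1.39-fold higher, edgeR adjusted p = 0.00235).

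Magel2, a MAGE family partner of ubiquitin ligases, had 142, 177 and 222 CPM in KO and 71.3, 115 and 89.8 CPM in WT. The groups did not overlap but varied widely within themselves, and its 1.97-fold difference (edgeR adjusted p = 0.0275) was not called without KO 2 (0.0848), KO 3 (0.0678) or WT 3 (0.094), or with no filter on low counts (0.104). Ndn, its MAGE family neighbour, had 730, 530 and 473 CPM in KO and 475, 599 and 593 CPM in WT. KO 1 was the highest and KO 3 the lowest of all 6 libraries (log2 fold change 0.06 with an SE of 0.16, adjusted p = 0.832 in edgeR). Magel2 over Ndn per kilobase was 0.156, 0.266 and 0.375 in KO and 0.12, 0.152 and 0.121 in WT, with KO 1 just above the highest WT library.

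Farther along the locus, Snrpn, a spliceosome component, had 228 ± 7.42 CPM in KO and 221 ± 12.8 CPM in WT (edgeR adjusted p = 0.657). That value is uncertain, because 27.3% of its exonic bases are shared with the gene model Gm38393 on the same strand. Ube3a, a ubiquitin ligase expressed from the maternal copy in neurons, had 93 ± 10.7 CPM in KO and 107 ± 7.09 CPM in WT. It was not called over all libraries (edgeR adjusted p = 0.115) and was called without KO 1 (0.0132). Its antisense partner Snhg14 overlaps 8.7% of its exonic bases.

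At the Peg10 locus on chromosome 6, 2 of 4 genes were higher and 1 was lower in KO, beside 9.72% and 10.5% of all tested genes. Peg10, derived from a retrotransposon and expressed from the paternal copy, had 666, 635 and 662 CPM in KO, against 421, 441 and 416 CPM in WT. It was 1.54-fold higher (log2 fold change 0.62 with an SE of 0.06, adjusted p = 0.000282 in edgeR). Sgce, which starts beside Peg10 on the other strand and encodes a sarcoglycan, had 36.7, 45.2 and 42.5 CPM in KO and 35.9, 34.5 and 36.2 CPM in WT (edgeR adjusted p = 0.0777, but 0.000729 without KO 1). Peg10 over Sgce per kilobase was 25.3 ± 3.31 in KO and 19.1 ± 1.11 in WT.

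Asb4, an ankyrin repeat protein with a SOCS box, had 131, 141 and 125 CPM in KO and 111, 98 and 98.4 CPM in WT (1.29-fold higher, edgeR adjusted p = 0.00779). Ppp1r9a encodes neurabin, an actin-binding protein of neurons. It had 141, 129 and 116 CPM in KO and 168, 163 and 157 CPM in WT, 1.26-fold lower (edgeR adjusted p = 0.0142). The call for Ppp1r9a was lost without KO 2 (0.053), WT 1 (0.0534) or WT 2 (0.0584).

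On the same chromosome, Mest, an enzyme of the alpha/beta hydrolase family expressed from the paternal copy, had 325, 315 and 339 CPM in KO, against 230, 225 and 208 CPM in WT. The lowest KO library was well above the highest WT library, and Mest was 1.48-fold higher (log2 fold change 0.56 with an SE of 0.06, adjusted p = 0.000495 in edgeR). Copg2, a coatomer subunit, runs into Mest from the other strand and shares 912 exonic bases with it, so some reads cannot be assigned. Copg2 had 113 ± 7.23 CPM in KO and 103 ± 5.1 CPM in WT (edgeR adjusted p = 0.191).

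At the Grb10 locus Ddc was higher and Cobl was lower in KO, and Grb10 was not called. Grb10, an adaptor that restrains insulin and growth factor receptors, had 388 ± 27.4 CPM in KO and 341 ± 33.1 CPM in WT, with overlap (edgeR adjusted p = 0.134). Cobl, an actin nucleator, had 11.7, 6.53 and 6.96 CPM in KO and 16.7, 21.1 and 20.6 CPM in WT. It was 2.32-fold lower in KO without overlap (log2 fold change -1.21 with an SE of 0.21, adjusted p = 0.00774 in edgeR, but 0.0551 with no filter on low counts). Ddc, the decarboxylase that makes dopamine and serotonin, had 12.1, 12.1 and 13.6 CPM in KO and 6.65, 8.63 and 8.24 CPM in WT, 1.61-fold higher (edgeR adjusted p = 0.00514). Cobl and Ddc are imprinted only in certain tissues or isoforms, as far as is known.

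The receptor of IGF2 and its antisense RNA were not called. Igf2r, which carries IGF2 to the lysosome, had 118, 89.2 and 86.3 CPM in KO and 96.9, 98.7 and 94.5 CPM in WT. KO 1 lay above the WT libraries and the other KO libraries below them, so the log2 fold change was 0.02 (edgeR adjusted p = 0.934) with KO 1 and -0.14 (0.0289) without it. Airn, the antisense RNA that silences Igf2r on the paternal copy, had 0.866 ± 0.228 CPM in KO and 1.01 ± 0.116 CPM in WT. Slc22a3, a transporter at the same locus, was too low to test, with 2, 1 and 3 counts in KO and 6, 8 and 10 counts in WT.

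At the Peg3 locus differences were small. Peg3, a zinc finger protein expressed from the paternal copy, had 557, 508 and 558 CPM in KO and 452, 479 and 438 CPM in WT. It was 1.19-fold higher in KO (edgeR adjusted p = 0.0298), a call that was lost without KO 3 (0.0859), WT 1 (0.0835), WT 2 (0.0713) or WT 3 (0.133) and with a replicate block (0.0787). Its neighbours Usp29, a deubiquitinase, and Zim1, a zinc finger protein, overlapped between groups (edgeR adjusted p = 0.546 and 0.411).

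Nnat, a small membrane protein of neurons within an intron of Blcap, was the most abundant member. It had 4577.9, 4665.7 and 5425.0 CPM in KO, against 3420.7, 3926.5 and 3858.0 CPM in WT. The KO libraries were all above WT, by 1.31-fold on average (log2 fold change 0.39 with an SE of 0.09, adjusted p = 0.0172 in edgeR), but without KO 3, WT 1, WT 2 or WT 3 in turn the adjusted p was 0.0518, 0.0655, 0.0515 and 0.0625. Blcap, which surrounds it and is named for its loss in bladder cancer, had 185 ± 9.94 CPM in KO and 175 ± 10.9 CPM in WT. Gnas, the stimulatory G protein alpha subunit, had 634, 654 and 756 CPM in KO and 568, 598 and 605 CPM in WT. Its groups did not overlap, and it was not called (edgeR adjusted p = 0.082) unless KO 1 was left out (0.00444), DESeq2 was used (0.0446) or no filter on low counts was applied (0.0313).

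Among genes at single loci, Plagl1 encodes a zinc finger transcription factor that restrains growth and is expressed from the paternal copy. It had 85.7, 96.7 and 104 CPM in KO and 66.2, 74.6 and 67.2 CPM in WT, 1.38-fold higher without overlap (log2 fold change 0.46 with an SE of 0.08, adjusted p = 0.00538 in edgeR). Impact, an inhibitor of the kinase GCN2, had 37, 39.1 and 39.1 CPM in KO and 32.5, 34.2 and 33.1 CPM in WT. It was 1.15-fold higher (edgeR adjusted p = 0.0394), and the adjusted p was between 0.104 and 0.138 without any library other than KO 1 and 0.0794 with a replicate block. Rasgrf1, an exchange factor for Ras, had 2.26, 1.67 and 1.7 CPM in KO and 2.58, 2.99 and 2.61 CPM in WT. It was 1.45-fold lower (edgeR adjusted p = 0.0477), with 0.0611 in DESeq2, 0.095 with a replicate block and up to 0.169 when a library was left out.

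The other tested members were not called. Commd1, a copper metabolism protein, and Zrsr1, a splicing factor gene within its intron, had log2 fold changes of 0.32 and 0.23. Both were above WT in all 3 KO libraries and were called without KO 1 (edgeR adjusted p = 6.11e-05 and 0.0162). Peg13, a noncoding RNA within Trappc9, a gene of vesicle traffic, had a log2 fold change of -0.24, and Trappc9 had -0.12. These too were called without KO 1 (0.000123 and 0.00194). Commd1 and Zrsr1 share 412 exonic bases on opposite strands. Zrsr1 and Mcts2 (log2 fold change 0.19) are retrotransposed copies of other genes, so their reads may be split with the originals. H13, a signal peptide peptidase gene that holds Mcts2 in an intron, Nap1l5, a nucleosome assembly protein, Inpp5f, a phosphatase, Slc38a4, an amino acid transporter, and Zdbf2, a zinc finger protein, had log2 fold changes between -0.09 and 0.21. Dcn, a proteoglycan gene of fibroblasts, was too low to test at 0.165 ± 0.0859 CPM in KO and 0.240 ± 0.150 CPM in WT.

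The genes were also grouped by the parental copy each is reported to use. That copy may differ in the MGE, where it was not measured. Of 25 tested paternally expressed genes, 12 were higher and 2 were lower in KO, with a median log2 fold change of 0.22. Of 10 tested maternally expressed genes, 3 were higher and 1 was lower, with a median of 0.10. Of 13 tested genes imprinted only in some isoforms or tissues, 2 were higher and 3 were lower, with a median of 0.09. Beside these counts stand 9.72% higher and 10.5% lower over all tested genes. The difference between the classes was not tested, and nothing is read from the counts.

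Levels per kilobase (RPKM) ran over a wide range. Nnat stood first with 2673.3 ± 255 RPKM in KO and 2042.1 ± 150 RPKM in WT. Ndn (156 ± 36.5 in KO and 150 ± 18.9 in WT), Snrpn (105 ± 3.44 and 102 ± 5.92) and Meg3 (86.4 ± 2.46 and 97.7 ± 12.5) came next by the mean over all 6 libraries. Ndn and Snrpn did not overlap in level, whereas Snrpn and Meg3 did, through WT 2 and WT 3. H19 was at 23.8 ± 1.89 RPKM in KO and 87 ± 3.36 RPKM in WT, so that in WT it was above Peg10 (63.9 ± 2.01) and in KO below it. Cdkn1c was at 71.7 ± 14.9 RPKM in KO and 30.6 ± 2.57 RPKM in WT, above H19 in KO and below it in WT.

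Of 24 listed regulators of imprinting, 21 were tested, and 2 of the 21 were lower in KO, a share near the 10.5% of all tested genes. These were Tet1 (43.6 ± 5.15 CPM in KO and 59 ± 2.83 CPM in WT, edgeR adjusted p = 0.00993) and Tet2 (91.2 ± 2.97 CPM in KO and 103 ± 3.72 CPM in WT, edgeR adjusted p = 0.047). Both encode enzymes that oxidise methylated cytosine. edgeR called 0 as higher, with 4 at an unadjusted p under 0.05, while DESeq2 called 1 and limma voom 0. Leaving out KO 1 gave 4 higher and 6 lower of 21, where 41.5% of all genes were called, and leaving out any other library gave 1 called regulator. The chromatin proteins Mbd3 and Atrx were just above the threshold (edgeR adjusted p = 0.0506 and 0.0573).

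A second list held 47 further genes that lie at imprinted loci or are reported as imprinted, of which 35 were tested, 5 were higher and 8 were lower (median log2 fold change 0.10), beside 9.72% and 10.5% of all tested genes. The 13 calls became 20 of 36 without KO 1, where 41.5% of all genes were called, and between 5 and 8 without any other library. Th, the tyrosine hydroxylase gene near Igf2, had 12.8, 16.2 and 18.2 CPM in KO, against 6.5, 6.51 and 6.21 CPM in WT. It was well above WT in each KO library (log2 fold change 1.30 with an SE of 0.13, adjusted p = 0.000347 in edgeR). In the extended Peg10 cluster, the paraoxonase genes Pon2 (log2 fold change 0.68) and Pon3 (0.81) were higher in KO. Pdk4, a kinase of pyruvate dehydrogenase in the same cluster, was lower, with 1.92, 2.06 and 1.36 CPM in KO and 5.07, 4.78 and 4.22 CPM in WT. Ampd3, an AMP deaminase gene, was lower too (log2 fold change -0.92).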

How the data were processed

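RNA-seq was made from 6 pools of embryonic day 14 MGE tissue, 3 labelled KO and 3 labelled WT. The submitters' processing notes name the build GRCm38 and, with no order, DESeq2, featureCounts, STAR 2.5.2b, Subread 1.5.2 and Trimmomatic 0.36. Neither the annotation release nor the strand setting is stated there. Every value here comes from the raw counts of reads per Ensembl gene that the authors deposited. Their normalized table was not used, because 2 of its columns share 1 name.

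Symbols, positions and exonic lengths came from GENCODE M21. Low genes were removed with filterByExpr at a minimum count of 10 and a minimum total of 15, and TMM scaling was applied. KO was then compared with WT by edgeR's quasi-likelihood test (version 4.0.16 under R 4.3.3, robust spread, no replicate block), with Benjamini-Hochberg adjustment over all tested genes at 0.05. SEs were obtained by dividing each log2 fold change by the root of its F statistic. CPM used TMM-scaled library sizes, and RPKM divided CPM by merged exonic length. The biological coefficient of variation was 9.52%. The procedure was tested on simulated data. The labels describe separate pools, so p-values measure the spread between pools.

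The imprinted genes, the lists of regulators, other imprinted genes and markers, and the tests were chosen with earlier results of these data known. Any imprinted gene could be named, with full values for called ones of at least 1 CPM and their neighbours. Up to 6 of each further imprinting list could be named by smallest p, and up to 3 per marker list by level. In the MGE list, the called markers were named as well. Alternatives were other thresholds, scalings and filters, DESeq2 1.42.0, limma 3.58.1 voom, no robust spread, a replicate block and each library left out.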

Additional observations from a re-analysis of the deposited data

How the results depend on the processing

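Of the 23 called imprinted genes, 14 kept their call in all 15 alternatives, among them H19, Igf2, Cdkn1c, Dlk1, Peg10, Mest and Peg12. No called gene changed sign, and 32 of the 345 pairs of a called gene and an alternative lost the call, the cause of which was not tested. Among uncalled genes 9 gained a call in at least 1 alternative (Mirg, Sgce, Gnas, Peg13 and Commd1 with no filter on low counts, Gnas and Commd1 with DESeq2, and all 9 without KO 1). Among them Igf2r had a log2 fold change of -0.14 without KO 1, against 0.02 with it (-0.14 to 0.11 over each library left out). With each library left out in turn, imprinted genes called ran between 12 and 22 higher and between 4 and 10 lower, all genes between 464 and 3752 higher and between 727 and 3804 lower, with 5 to 20 called other imprinted genes and 1 to 10 called regulators, in each case with the highest count without KO 1. At a threshold of 0.01 there were 13 higher and 4 lower imprinted genes (17 and 6 at 0.05). At that threshold there were 360 higher and 583 lower genes in all (1758 and 1897 at 0.05), 4 other imprinted genes (13) and 1 regulator (2). At 0.1 there were 22 higher and 7 lower imprinted genes, 2732 higher genes in all and 6 regulators. DESeq2 called 4 regulators and limma voom 1. With the replicate number as a block there were 862 higher and 1219 lower genes in all, 15 higher and 5 lower imprinted genes, and 1 regulator. The correlation between the deviations of KO and WT libraries with the same number was -0.0756, -0.123 and 0.0264. These values gave no sign that the numbers pair the pools, but with 3 libraries per group they cannot exclude it. Counted on the gene's own strand alone, TGCCGC was in 4.35% of imprinted windows and 5.65% of all windows. Per gene with a window, the shares on that strand were 6.82% and 6.45%. Precision was limited by 3 pools per group, and the lowest genes, such as Rasgrf1, Airn and Slc38a4, had few reads.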
